A study of Arabidopsis thaliana with 10 samples.

Results

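WRKY transcription factors of group III were followed in roots of an Arabidopsis thaliana triple knockout of MCU genes (mcu123) and of the wild type Col-0. The 10 genes were WRKY30, WRKY38, WRKY41, WRKY46, WRKY53, WRKY54, WRKY55, WRKY62, WRKY64 and WRKY70, out of 27826 loci on the arrays, and all 10 had a row. They were chosen by locus code as group III members, with the mcu123 and Col-0 log2 intensities of these same arrays already known, so the genotype differences below are a description and carry no test of the set. No threshold on the values was part of the choice. Of the remaining group III genes, WRKY63, WRKY66 and WRKY67 were measured as well and are given where they bear on the result.

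MCU genes encode pore subunits of the mitochondrial calcium uniporter, which carries calcium into the matrix. Both mcu123 and Col-0 had 5 Affymetrix arrays, each of total RNA from pooled roots of seedlings aged 20 days. All seedlings grew untreated and sterile in hydroponics with half-strength Murashige and Skoog medium and sucrose, with days of 16 h at 21 °C and nights of 8 h at 17 °C. The labels name neither the alleles nor the number of lines, and do not say whether the pools came from separate cultures, so p-values measure only the spread between these samples, which may be partly technical.

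WRKY proteins bind W-box elements in DNA through a domain with a conserved WRKYGQK stretch and a zinc finger, and group III is set apart by its form of that finger. Many group III genes are induced by salicylic acid or by pathogens and act in defence, in leaf senescence and in responses to drought and salt. WRKY46, WRKY53, WRKY54 and WRKY70 form overlapping sets in these roles, and WRKY38 and WRKY62 act as repressors of basal defence.

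Values are log2 intensities after RMA, in which every array had the same distribution with a median of 4.30, and a difference of 1 on this scale is 2-fold. Probe sets of different genes have different response, so levels are not ranked between genes. MCU3 measured 4.14 ± 0.28 in mcu123 and 6.12 ± 0.22 in Col-0 (SD, n = 5 each), and MCU1 measured 2.87 ± 0.16 in mcu123 and 4.52 ± 0.23 in Col-0. Both were lower in all mcu123 arrays than in any Col-0 array, while MCU2 measured 2.77 ± 0.27 in mcu123 and 2.86 ± 0.29 in Col-0, below the array median. Where the MCU probes lie relative to the mutations was not known here. Of 12 root cell type markers, 9 lay at or above the median of gene means, and 7 had lower means in mcu123, with a median log2 difference of -0.01. The 5 photosynthetic shoot markers averaged 2.98 to 4.27 on mcu123 arrays and 2.89 to 3.77 on Col-0 arrays, with LHCB2.1 at 1.57 in mcu123 and 1.58 in Col-0. The array mcu123 replicate 3 stood farthest along the first principal component of all genes, which held 25.7% of the variance, and it had the lowest limma array weight (0.394).

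All members but WRKY64 had lower means in mcu123. These were 9 of 10, where 47.3% of all genes were lower, and the median log2 difference was -0.39, where the median over all genes was 0.01. The means of WRKY38 and WRKY62 were more than 2-fold lower in mcu123, 2 of 10 members, where 0.456% of all genes were at least 2-fold lower. None of the 10 was called by limma with Benjamini-Hochberg adjustment over all genes at 0.05, where 0.0431% of genes were called in either direction. At an unadjusted limma p below 0.05 there were 4 of 10, all lower in mcu123 (WRKY30, WRKY38, WRKY53 and WRKY62), where 4.08% of genes were lower at that level. In bulk roots, fewer cells of a type and less RNA per cell cannot be told apart. Of the root cell type markers, the phloem gene SUC2 ran from 3.23 to 5.34 on mcu123 arrays and from 5.35 to 6.06 on Col-0 arrays with no overlap (log2 difference -0.85), while the phloem markers APL and SEOR1 differed by 0.04 and 0.13, and their part in the WRKY values was not tested. Without mcu123 replicate 3, again 9 of 10 were lower, with a median of -0.44, and WRKY46 differed by -0.47 in place of -0.65. The contrast that gives these counts was known when the genes were chosen, so the shares are set side by side and nothing is read from them.

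The levels fell into separate ranges. The means over all 10 arrays of WRKY38, WRKY46, WRKY53 and WRKY70 lay at or above 4.30, the median of gene means to 2 decimals, and those of the other 6 lay below it. No detection calls were available here, so for those 6 a low value cannot be separated from background.

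**Figure D1:**
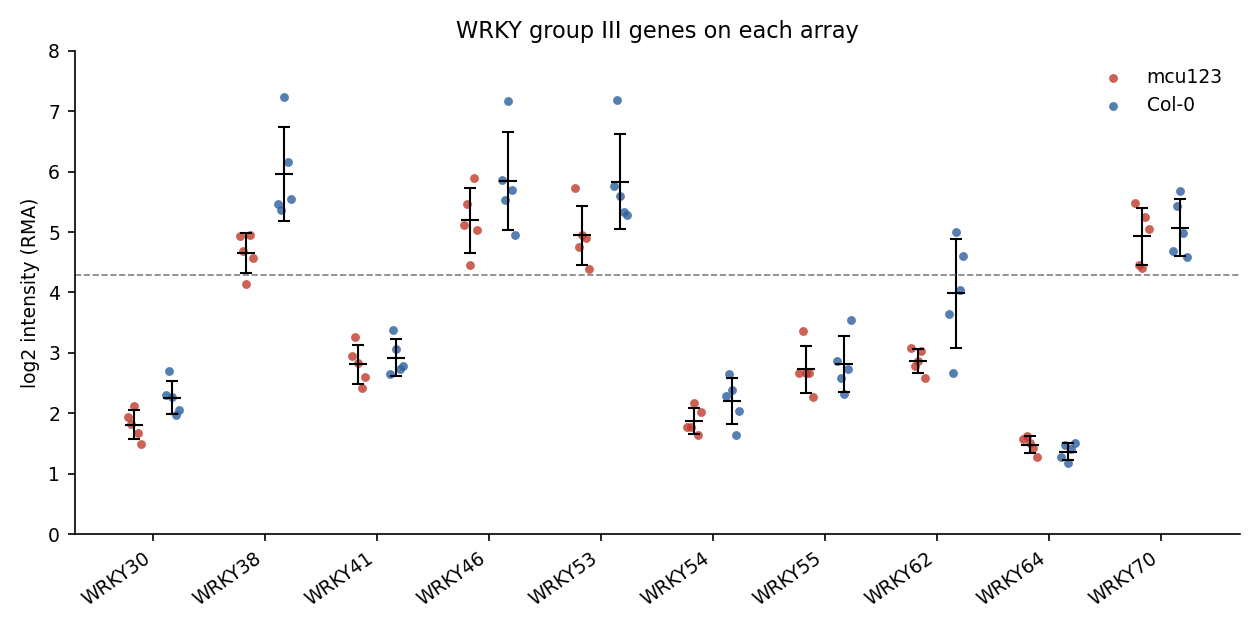
Log2 intensity (RMA) of the 10 group III WRKY genes on each array, mcu123 in red left of Col-0 in blue, with the mean and SD of 5 arrays in black and the array median of 4.30 as a dashed line. WRKY38 is the gene whose red and blue points do not overlap, and WRKY62 spans 2.67 to 4.99 in Col-0.

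WRKY38 (AT5G22570) and WRKY62 (AT5G01900) encode related nuclear factors that repress basal defence and bind the histone deacetylase HDA19. WRKY38 measured 4.94, 4.68, 4.14, 4.96 and 4.57 on the mcu123 arrays, against 5.47, 5.36, 7.24, 6.17 and 5.55 on the Col-0 arrays. Every mcu123 array lay below every Col-0 array, which held for 1 of 10 members, where 1.02% of all genes did not overlap with mcu123 lower. The means were 4.66 ± 0.33 in mcu123 and 5.96 ± 0.78 in Col-0 (SD, n = 5 each), a log2 difference of -1.30 (SE 0.32). Col-0 replicate 3 stood high, and without it the difference was -0.98, still with no overlap.

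WRKY62 measured 3.08, 2.77, 2.87, 3.04 and 2.59 on the mcu123 arrays, against 3.65, 2.67, 4.99, 4.04 and 4.60 on the Col-0 arrays. The mcu123 arrays stayed within a range of 0.49, while the Col-0 arrays spread over 2.33, and 4 of 5 Col-0 arrays lay above the highest mcu123 array. Col-0 replicate 2 was the exception. The means were 2.87 ± 0.20 in mcu123 and 3.99 ± 0.90 in Col-0, a log2 difference of -1.12 (SE 0.34). The difference was -0.87 without Col-0 replicate 3 and -1.45 without Col-0 replicate 2.

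WRKY53 (AT4G23810) promotes leaf senescence, is bound by the kinase MEKK1 and is degraded through the ubiquitin ligase UPL5. It measured 5.72, 4.75, 4.95, 4.91 and 4.39 in mcu123, against 5.76, 7.19, 5.59, 5.32 and 5.28 in Col-0. Col-0 replicate 2 was far above the rest, and mcu123 replicate 1 lay among the Col-0 arrays while the other 4 mcu123 arrays lay below all of them. The log2 difference was -0.89 (SE 0.34), from means of 4.94 ± 0.49 in mcu123 and 5.83 ± 0.79 in Col-0. It was -0.55 without Col-0 replicate 2 and -0.48 without the 3 arrays of lowest weight, an alternative chosen after seeing the data.

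WRKY46 (AT2G46400) acts with WRKY53 and WRKY70 in basal defence and, in roots, represses the malate transporter gene ALMT1. It measured 5.12, 5.46, 4.46, 5.89 and 5.03 in mcu123, against 5.87, 5.54, 7.17, 5.69 and 4.95 in Col-0. The groups overlapped over most of their ranges, apart from the high Col-0 replicate 3. The means were 5.19 ± 0.53 in mcu123 and 5.84 ± 0.82 in Col-0, and the log2 difference of -0.65 (SE 0.36) was -0.32 without Col-0 replicate 3.

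WRKY70 (AT3G56400) sits between salicylic acid and jasmonate signalling and, with its relative WRKY54, holds back leaf senescence. It measured 5.48, 4.46, 4.41, 5.25 and 5.04 in mcu123, against 4.68, 5.42, 5.68, 4.98 and 4.59 in Col-0. The ranges nearly coincided, with means of 4.93 ± 0.48 in mcu123 and 5.07 ± 0.47 in Col-0. The log2 difference of -0.14 (SE 0.26) took the other sign, 0.01, without Col-0 replicate 3, and was 0.07 with limma array weights.

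WRKY54 (AT2G40750) measured 1.77, 1.77, 2.16, 1.64 and 2.02 in mcu123, against 2.28, 2.64, 2.39, 1.65 and 2.04 in Col-0. The groups overlapped, and the log2 difference was -0.33 (SE 0.18) between means of 1.87 ± 0.21 in mcu123 and 2.20 ± 0.38 in Col-0. It was -0.22 without Col-0 replicate 2. WRKY55 (AT2G40740), which promotes leaf senescence and defence, lies next to WRKY54 on chromosome 2, with 0 protein-coding genes between them in the RefSeq TAIR10.1 gene order. It measured 2.67, 3.36, 2.67, 2.67 and 2.27 in mcu123, against 2.87, 2.59, 2.32, 2.73 and 3.55 in Col-0. The ranges overlapped almost wholly, and the log2 difference of -0.09 (SE 0.23) was 0.10 without Col-0 replicate 5 and 0.03 without mcu123 replicate 5.

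WRKY30 (AT5G24110) is linked to oxidative and abiotic stress and its protein binds WRKY53, WRKY54 and WRKY70. It measured 1.93, 1.82, 2.12, 1.68 and 1.49 in mcu123, against 2.31, 2.69, 2.27, 1.97 and 2.06 in Col-0. Only mcu123 replicate 3 reached the Col-0 range, and the log2 difference was -0.45 (SE 0.16) between means of 1.81 ± 0.24 in mcu123 and 2.26 ± 0.28 in Col-0. All of these values lay in the lower part of the scale, at the percentile 25.1 of gene means.

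WRKY41 (AT4G11070), a regulator of seed dormancy through ABI3, measured 2.95, 3.26, 2.84, 2.43 and 2.59 in mcu123, against 2.65, 3.38, 3.06, 2.74 and 2.77 in Col-0. The arrays of both genotypes intermixed, with a log2 difference of -0.11 (SE 0.18) that was 0.0041 without Col-0 replicate 2. WRKY64 (AT1G66560) measured 1.28 to 1.63 in mcu123 and 1.18 to 1.504 in Col-0, a log2 difference of 0.11 (SE 0.11) that was 0.07 without Col-0 replicate 3. Its means lay at the percentile 6.17 of all genes.

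The 3 other group III genes also lay near the bottom of the scale. WRKY63, which acts in abscisic acid responses, averaged 1.27 ± 0.28 in mcu123 and 1.46 ± 0.44 in Col-0, WRKY66 averaged 1.48 ± 0.23 in mcu123 and 1.58 ± 0.11 in Col-0, and WRKY67 averaged 1.39 ± 0.17 in mcu123 and 1.29 ± 0.20 in Col-0 (SD, n = 5 each). Their log2 differences were -0.19, -0.10 and 0.10. WRKY64 and WRKY67 are adjacent on chromosome 1, with WRKY63 3 protein-coding genes away from WRKY64. Probe sequences were not used here, so signal shared between similar genes of this cluster could not be told apart. With these genes included, 11 of 13 group III genes had lower means in mcu123, with a median log2 difference of -0.19.

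The 59 WRKY genes outside group III, found by symbol or synonym in the RefSeq table, were set beside the members. Of these 39 had lower means in mcu123 (47.3% of all genes did), 0 were called by limma over all genes, and 14 were lower at an unadjusted limma p below 0.05 (4.08% of all genes). At least 2-fold lower were 6 of 59 (0.456% of all genes), and 4 of 59 did not overlap (1.02% of all genes), namely WRKY6, WRKY19, WRKY25 and WRKY48, named after their values were seen. Their log2 differences ran from -1.496 to 0.36 with a median of -0.15. Among the 38 of them with a mean level at or above the median of gene means the median was -0.26, and among the 4 such members of group III it was -0.77. Whether group III differs from the other WRKY genes was not tested.

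**Figure D2:**
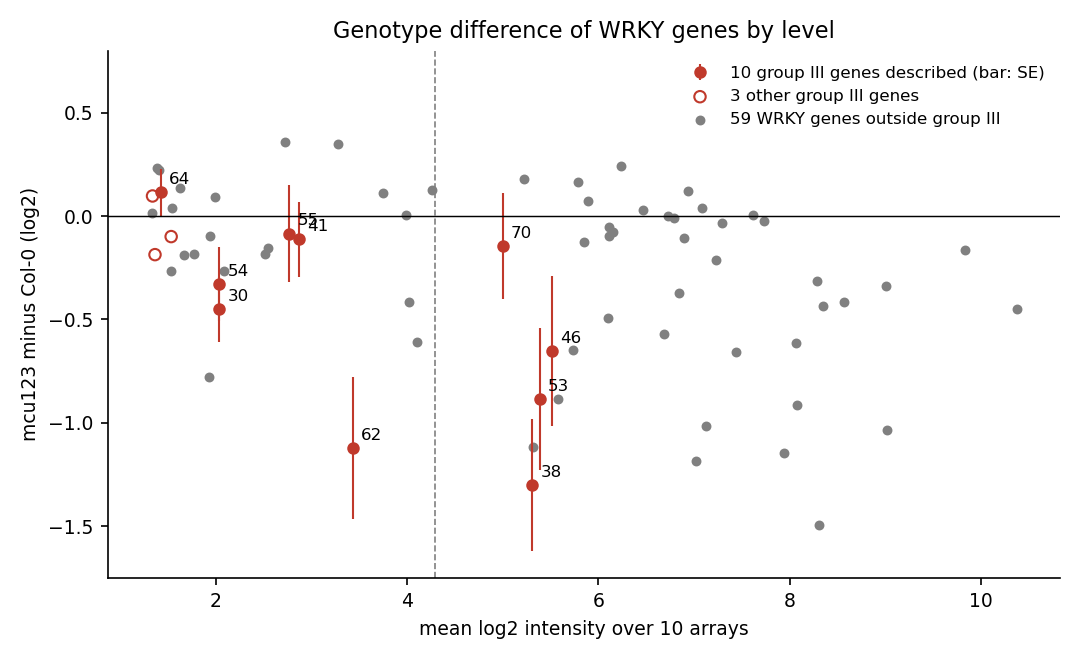
Difference in mean log2 intensity, mcu123 minus Col-0, against the mean log2 intensity over 10 arrays for all WRKY genes, with the 10 group III genes in red (bars show the SE of the limma fit, numbers are gene numbers), the 3 other group III genes as open circles and the 59 genes of other groups in grey. The dashed line is the median of gene means. WRKY38 (-1.30), WRKY62 (-1.12) and WRKY53 (-0.89) lie lowest in red, and grey points reach -1.496.

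Arrays of one genotype differed more for some of these genes than for most genes. For WRKY38, WRKY46, WRKY53 and WRKY62 the SD in Col-0 ranged from 0.78 to 0.90, at the percentiles 99.0, 99.2, 99.0 and 99.5 of all genes. These were the members with the largest SDs in Col-0. In mcu123 the SDs of the same genes were 0.33, 0.53, 0.49 and 0.20, at the percentiles 72.3, 92.8, 90.4 and 36.1 of all genes. The SD was larger in Col-0 for 7 of 10 members, against 44.8% of all genes. The SD of WRKY62 lay at the percentile 36.1 of all genes in mcu123 and 99.5 in Col-0, and its mean lay below the median of gene means. The difference in spread was not tested, and the Col-0 array farthest from the mean of these 4 genes was replicate 2 for WRKY53 and WRKY62 and replicate 3 for WRKY38 and WRKY46.

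The members did not share one pattern over the arrays. In Col-0, WRKY30, WRKY41, WRKY53 and WRKY54 were highest on replicate 2, WRKY38, WRKY46, WRKY62 and WRKY70 on replicate 3, and WRKY55 and WRKY64 on replicate 5. Of all genes, 23.7% were highest on Col-0 replicate 2, 18.9% on replicate 3 and 23.7% on replicate 5. In mcu123, replicate 5 was the lowest array for 5 of 10 members and the highest for 0, where 17.8% of all genes were highest on it. The share of all genes lowest on it was not computed. Replicate 5 of mcu123 also had the highest mean of the shoot markers, 4.27, and the part of shoot RNA in these values was not tested.

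**Figure D3:**
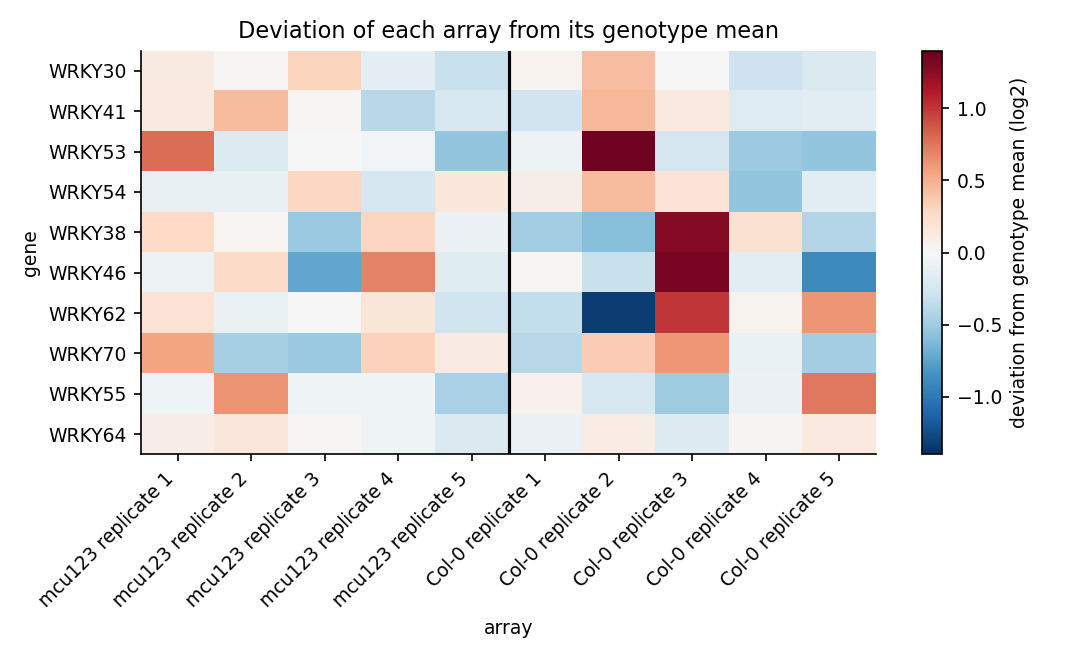
Deviation of each array (columns, mcu123 left of Col-0) from the mean of its genotype, in log2 units, for each gene (rows), with red for above and blue for below. WRKY53 is high on Col-0 replicate 2, where WRKY62 is low, and WRKY38, WRKY46 and WRKY62 are high on Col-0 replicate 3.

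Deviations from the genotype means hold no genotype contrast, so they were compared between genes over all 10 arrays. This was done for the 6 pairs of the 4 members at or above the median of gene means. WRKY38 and WRKY46 varied together with Pearson r = 0.84 (permutation p = 0.0032, adjusted over the 6 pairs p = 0.019) and Spearman rho = 0.75 (permutation p = 0.018, adjusted p = 0.11). The permutations moved deviations freely between genotypes. The deviations are centred within each genotype, and both genes had a larger SD in Col-0, so these p-values may be too small. Within genotype, r was 0.83 over the 5 mcu123 arrays and 0.86 over the 5 Col-0 arrays. Col-0 replicate 3 stood highest in both genes, at 7.24 and 7.17, and mcu123 replicate 3 lowest, at 4.14 and 4.46. How far these arrays carry each r was not tested. Without the 2 arrays farthest from the median of WRKY38, r was 0.67, with genotype means that still included them. Of the genes at or above the median of gene means, 0.194% correlated with WRKY38 at least as closely as WRKY46 did, and 0.539% correlated with WRKY46 at least as closely as WRKY38 did.

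By Pearson r no other pair of the 4 passed 0.05 after adjustment, and by Spearman rho no pair did, that of WRKY38 and WRKY46 included. WRKY70 correlated with WRKY38 at r = 0.63 (permutation p = 0.040, adjusted p = 0.12) and rho 0.55. With WRKY46 it correlated at r = 0.59 (permutation p = 0.069, adjusted p = 0.14) and rho 0.53. The r with WRKY46 was 0.25 without the 2 farthest arrays. WRKY53 correlated with WRKY70 at 0.45 (permutation p = 0.21, adjusted p = 0.32), with WRKY46 at -0.06 (permutation p = 0.86, adjusted p = 0.86) and with WRKY38 at -0.23 (permutation p = 0.50, adjusted p = 0.60). The median r of the 6 pairs was 0.52, and 0.50 without mcu123 replicate 3.

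Over all 45 pairs of the 10 members the median r was 0.03, and r ran from -0.69 for WRKY55 with WRKY70 to 0.84 for WRKY38 with WRKY46. WRKY30 with WRKY53 (0.82), WRKY55 with WRKY64 (0.74), WRKY30 with WRKY54 (0.70) and WRKY38 with WRKY62 (0.68) were also high. WRKY55 and WRKY64 both lay below the median of gene means. WRKY53 with WRKY62 was at -0.60 and the adjacent WRKY54 and WRKY55 at -0.37. These values come from 10 arrays and include genes low on the scale, and they are given with no p.

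**Figure D4:**
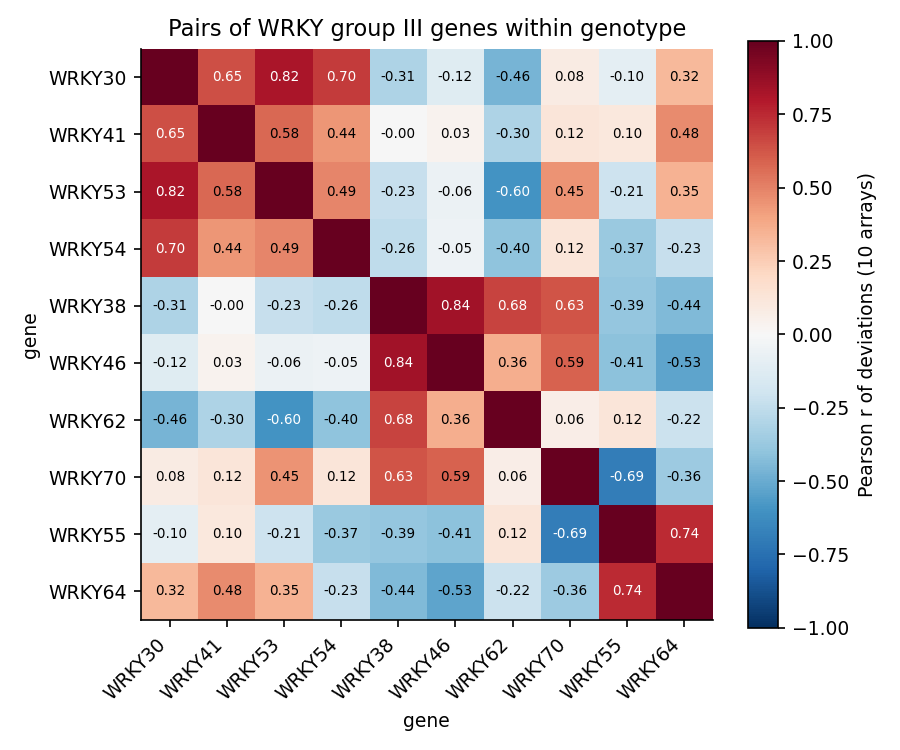
Pearson r of deviations from genotype means over 10 arrays for each pair of the 10 genes, red for positive and blue for negative. The order of genes was set by hand. WRKY30, WRKY41, WRKY53 and WRKY54, placed side by side, form a red block (0.44 to 0.82), and WRKY38 is red with WRKY46 (0.84), WRKY62 (0.68) and WRKY70 (0.63). Of the block, all were highest in Col-0 on replicate 2, and WRKY30, WRKY41 and WRKY54 lay below the median of gene means.

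The 5 genes whose deviations followed the mean of WRKY38, WRKY46, WRKY53 and WRKY70 most closely, among 13908 genes at or above the median of gene means, were AT2G36220 (r = 0.96), AT2G18210 (0.95), RAP2.10 (0.94), AT4G27654 (0.94) and FC1 (0.93), over 10 arrays. Without mcu123 replicate 3 their r ranged from 0.93 to 0.95. RAP2.10 encodes a DREB-type transcription factor and FC1 a ferrochelatase. They were ranked for likeness, so no p is given.

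Genes of rapid responses to touch and wounding were compared array by array with the mean of WRKY38, WRKY46, WRKY53 and WRKY70, whose own pairwise r ran from -0.23 to 0.84. The mean of 15 such genes, which include the zinc finger gene ZAT12, the ethylene response factor gene ERF6, the calmodulin-like gene TCH2 and 3 WRKY genes of other groups, had deviations that correlated with those of the 4 members at r = 0.93 (rho 0.85, 0.88 without the 2 farthest arrays, 0.88 within mcu123 and 0.96 within Col-0). Col-0 replicate 3 was highest and Col-0 replicate 5 lowest in both. The list mean ran from 6.38 to 6.93 on mcu123 arrays and from 6.49 to 7.87 on Col-0 arrays, and 14 of the 15 genes had lower means in mcu123, where 47.3% of all genes did. None was called by limma over all genes (0 of 15, where 0.0431% were), and 8 were lower at an unadjusted p below 0.05, where 4.08% were. ZAT12 differed by -1.20, WRKY40 by -0.91, ERF6 by -0.77 and TCH2 by -0.23 on the log2 scale. The part of this list in the WRKY differences was not tested.

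**Figure D5:**
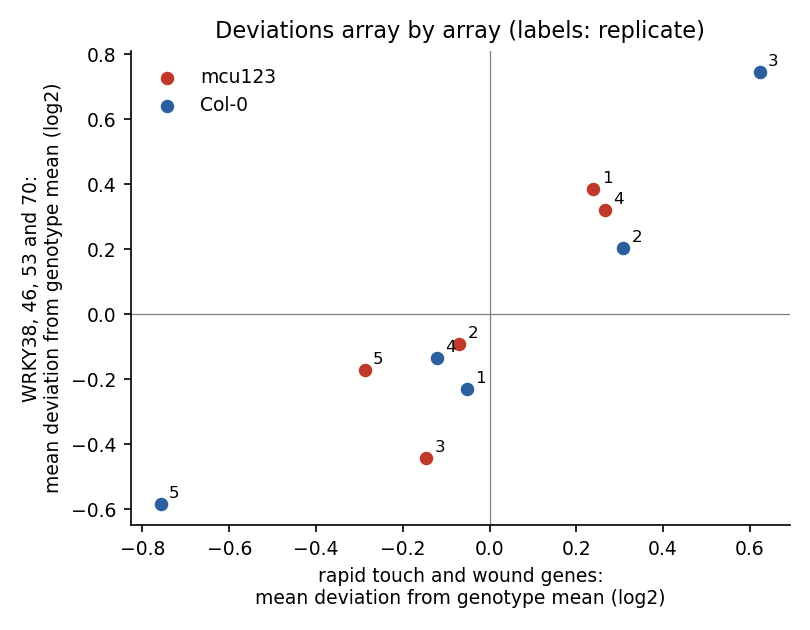
Mean deviation from the genotype mean of WRKY38, WRKY46, WRKY53 and WRKY70 (vertical axis, log2) against that of 15 rapid touch and wound genes (horizontal axis, log2), 1 point per array labelled with its replicate number, mcu123 red and Col-0 blue. The points rise together (r = 0.93), with Col-0 replicate 3 at the top right and Col-0 replicate 5 at the lower left.

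Genes of salicylic acid synthesis and signalling, upstream of and beside group III factors, were compared next. Of 20 genes 14 had lower means in mcu123, where 47.3% of all genes did, with a median log2 difference of -0.11, and 0 were called by limma over all genes in either direction. At an unadjusted p below 0.05, 5 were lower, where 4.08% of all genes were, and 1 was higher, where 940 of 27826 genes were. The synthase gene ICS1 measured 2.45 ± 0.32 in mcu123 and 2.58 ± 0.50 in Col-0, and its regulator CBP60g measured 6.90 ± 0.43 in mcu123 and 7.01 ± 0.42 in Col-0. The salicylic acid receptor gene NPR1 differed by -0.16 (SE 0.14). The immune regulators EDS1 and PAD4 had log2 differences of 0.22 and -0.15. The receptor genes NPR3 (-0.60) and NPR4 (-0.34) were the 2 of 20 whose mcu123 arrays all lay below the Col-0 arrays, where 1.02% of all genes did. The salicylic acid exporter gene EDS5 (-0.67), the salicylic acid hydroxylase gene DMR6 (-0.59) and SAG101 (-0.53), whose product acts with EDS1, also had lower means in mcu123. These 5 genes were named after their values were seen.

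Markers of the salicylic acid response had low values. PR1 measured 1.28 ± 0.31 in mcu123 and 1.29 ± 0.11 in Col-0, and NIMIN1, whose product binds NPR1, measured 1.58 ± 0.41 in mcu123 and 1.39 ± 0.27 in Col-0. The list mean of deviations correlated with the 4 members at r = 0.35 over 10 arrays, but at -0.60 over the mcu123 arrays and 0.92 over the Col-0 arrays, and without the 2 farthest arrays it was -0.0032.

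Proteins known to bind or modify group III factors were covered by 7 genes. Of these 4 had lower means in mcu123, where 47.3% of all genes did, and 0 were called by limma, where 0.0431% were. At an unadjusted limma p below 0.05, 1 was lower, where 4.08% of all genes were. HDA19 differed by 0.02 and BIN2, a brassinosteroid kinase, by 0.01 on the log2 scale, with SEs of 0.10 each. MEKK1 measured 6.78 ± 0.14 in mcu123 and 7.05 ± 0.10 in Col-0, and UPL5 measured 6.75 ± 0.20 in mcu123 and 6.92 ± 0.12 in Col-0. The kinase gene MPK3 differed by -0.32, the brassinosteroid factor gene BES1 by -0.11 and the epithiospecifier gene ESP, low in both genotypes, by 0.07. The mean deviation of the list correlated with that of the 4 members at r = 0.87 over 10 arrays. MPK3 had an SD of 0.74 in Col-0, against 0.10 (MEKK1) to 0.28 (ESP) for the others, so it weighed most in that mean. The r of single partners was not tested. Against the same 4 members, r was 0.77 for the reported targets below and 0.47 for genes of leaf senescence. It was 0.315 for the root cell type markers and 0.145 for the photosynthetic shoot markers. Within mcu123 alone, r was 0.83 for the senescence genes and 0.69 for the root markers, and within Col-0 alone 0.04 and -0.12.

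Of 6 genes reported as targets of group III factors, 4 had lower means in mcu123, where 47.3% of all genes did. None was called by limma, where 0.0431% of all genes were. At an unadjusted limma p below 0.05, 1 was higher (PBS3), where 940 of 27826 genes were. PBS3 and SARD1 were also in the salicylic acid list, where PBS3 was the same 1 gene counted as higher. ALMT1 measured 2.25 ± 0.40 in mcu123 and 2.55 ± 0.41 in Col-0, and the vacuolar iron transporter-like gene VTL1, a target of WRKY46, measured 3.26 ± 0.71 in mcu123 and 3.17 ± 0.14 in Col-0. SARD1, a regulator of salicylic acid synthesis, measured 5.79 ± 0.24 in mcu123 and 5.88 ± 1.21 in Col-0, with Col-0 replicate 5 at 3.90 and Col-0 replicate 3 at 7.14. PBS3, a gene of salicylic acid synthesis, differed by 0.24, the seed regulator gene ABI3 by -0.02 and the defensin gene PDF1.2 by -0.07, and all of these averaged less than 2 (log2) in each genotype.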

How the data were processed

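Total RNA from pooled roots was measured on 10 Affymetrix arrays, 5 from mcu123 and 5 from Col-0. The deposited values are log2 intensities from RMA, per the submitters' processing notes. No array model, probe grouping, software version or genome build is given in the sources used here. The sorted values of all 10 deposited columns were identical, so a shift common to all genes cannot be seen. Precision is limited by the number of arrays.

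Rows were matched by locus code, and symbols came from RefSeq TAIR10.1, which held 27241 of 27826 codes. MCU1 to MCU3 were named from a prepared list. The comparison used limma 3.58.1 in R 4.3.3 (lmFit and eBayes, two-sided, genotype as the single term, Benjamini-Hochberg over all 27826 rows, threshold 0.05, no filter), checked on simulated data. Pairs were correlated on deviations from genotype means with 100000 permutations. Python 3.11.15 and numpy 2.4.6 were used. Members, lists and naming rules were chosen with earlier results of these data known. Named were all group III genes, all partners and targets, fixed members of the salicylic acid and rapid lists, the MCU genes and the 5 genes of closest deviation. Alternatives were a dim-gene filter, cyclic loess, a trended and robust prior, array weights, a replicate block, each array left out and, added after seeing the data, the 3 arrays of lowest weight left out. No batch is given in the labels. No sequences of these genes were used here.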

Additional observations from a re-analysis of the deposited data

Results flagged for a closer look

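WRKY53 on Col-0 replicate 2 lay far from the other Col-0 arrays. It measured 7.19 on the log2 scale, the next Col-0 array measured 5.76, and the gap between them made up 0.747 of the range of the 5 arrays. Among 26 sets of 5 arrays examined (13 group III genes in each genotype) this was the 1 picked out, and chance picks about 1 in 20. WRKY30, WRKY41 and WRKY54 were also highest in Col-0 on that array, at 2.69, 3.38 and 2.64, and WRKY62 was lowest, at 2.67. The cause was not tested.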

How the results depend on the processing

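No member was called in any of the 16 alternative fits, where the smallest limma adjusted p of a member was 0.123, and 3 to 5 members had an unadjusted p below 0.05. With the dimmest 30% dropped, all 7 members fitted were lower in mcu123, and in the other alternatives 8 to 9 of 10 were. The shares of all genes lower, or with an unadjusted p below 0.05, in each alternative are not given here. The difference of WRKY46 ran from -0.88 to -0.32, that of WRKY53 from -1.08 to -0.48 and that of WRKY70 from -0.28 to 0.27. WRKY38, WRKY46, WRKY53, WRKY62, WRKY30, WRKY54 and WRKY64 kept their sign in every alternative run, while WRKY70 changed it in 3, WRKY55 in 2 and WRKY41 in 1. The count of 12 genes called was 7 with the dimmest 30% dropped, 35 with a trended and robust prior, 30 with array weights, 3 without the 3 arrays of lowest weight, and 5 to 22 with each array left out. Members with no overlap numbered 1, or 1 to 2 with each array left out, where WRKY62 joined without Col-0 replicate 2, WRKY53 without mcu123 replicate 1 and WRKY30 without mcu123 replicate 3, and 3 without the 3 arrays of lowest weight. The share of all genes with no overlap and lower in mcu123 was 4.79% in that last case and 1.28% to 2.49% when single arrays were dropped, against 1.02% with all arrays. The median r of 0.52 was 0.034 over all 10 members and 0.41 to 0.57 with each array left out, lowest without Col-0 replicate 3. Same-numbered arrays correlated at -0.32 to 0.17 in their deviations, so the numbers were not taken to pair them, and with the replicate block 8 genes and 0 members were called. The causes of these changes were not tested. Without detection calls, signal over background limits the 6 members below the median of gene means.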

Other observations

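Genes of leaf senescence, a process in which WRKY53, WRKY54, WRKY55 and WRKY70 act, were measured in these roots. Of 11 such genes 8 had lower means in mcu123 (47.3% of all genes did), 0 were called by limma over all genes and 3 were lower at an unadjusted p below 0.05 (4.08% of all genes). The median log2 difference was -0.35. The mean level of the list was 4.21 on mcu123 replicate 3, against 5.12 to 5.43 on the other mcu123 arrays and 5.33 to 5.53 on the Col-0 arrays. On that array SEN1, ORE1, NAP and WRKY45 had their lowest mcu123 values, 4.49, 4.10, 4.21 and 5.12, while WRKY22 had its highest. These genes were named after their values were seen. The count, the median and the 2-fold differences of this list include that array and were not computed without it. The 3 genes at least 2-fold lower were themselves WRKY genes of other groups. WRKY6 measured 8.50 ± 0.31 in mcu123 and 9.53 ± 0.27 in Col-0, WRKY22 measured 6.42 ± 0.997 in mcu123 and 7.61 ± 1.09 in Col-0, and WRKY75 measured 4.76 ± 1.23 in mcu123 and 5.88 ± 0.79 in Col-0 (SD, n = 5 each). Of these values, mcu123 replicate 3 was at 8.00 for WRKY22 and 2.67 for WRKY75, and Col-0 replicate 5 was at 9.48 for WRKY22. They were named after their values were seen. SAG12, a marker of late senescence, and SAG13, an earlier one, averaged less than 2 (log2) in each genotype.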
